A study of Homo sapiens with 5 samples.

Results

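Dense clusters of ATF3-binding sites were examined in HCT116 cells, a human colon cancer cell line, after treatment with camptothecin (CPT). A cluster, called a run here, was a series of 5 or more ATF3-CPT peaks on chromosomes 1 to 22 and X in which the centre of each peak lay at most 5 kb from the centre of the next. The rule gave 500 runs, which held 2880 of 70128 ATF3-CPT peaks on these chromosomes (4.11%). The ATF3-CPT library came from ATF3-WT cells that had received CPT at 1.5 μM during 4 h, and the ATF3-Ctrl library came from ATF3-WT cells that had received DMSO. The ATF3-KO library was made with the same ATF3 antibody from ATF3-KO cells given DMSO, which had been derived from single clones by AAV-mediated recombination and are therefore a selected line. A p53 antibody was used for the p53-CPT library (p53-WT cells, the same CPT treatment) and the p53-KO library (p53-KO cells, DMSO), so these 2 libraries differ in genotype and in treatment. Each condition had 1 library and no replicate, so no difference below could be tested between conditions, and the intervals given cover counting error only. The members were chosen by the positions of the ATF3-CPT peaks, so the number, spacing and tag count of the runs in that library are a description.

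ATF3 is a stress-induced transcription factor of the ATF/CREB family. It binds DNA through a basic leucine zipper, either as a homodimer or as a dimer with JUN proteins, and such dimers recognise the AP-1 element and the related ATF/CRE element. CPT traps topoisomerase I on DNA and causes DNA breaks when replication or transcription meets the trapped enzyme. Groups of transcription factor sites that lie close together are a common feature of enhancers, the distal elements that raise transcription of genes.

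The peaks in the list were 125 bases long, and the sequences below, read from GRCh37 on the + strand, show what the runs contained. The first group came from runs whose shown peak held an exact AP-1 core, printed in capitals (TGACTCA or its reverse complement TGAGTCA). Each was the highest-scoring peak of its run.
HMGA1 run, chr6:34191868-34191992: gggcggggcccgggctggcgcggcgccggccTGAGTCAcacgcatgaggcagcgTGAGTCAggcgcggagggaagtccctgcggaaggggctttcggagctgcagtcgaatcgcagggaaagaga
MYO18A run, chr17:27460211-27460335: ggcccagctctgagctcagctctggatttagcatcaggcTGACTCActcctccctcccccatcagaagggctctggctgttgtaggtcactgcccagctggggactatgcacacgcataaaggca
ERRFI1 run, chr1:8157630-8157754: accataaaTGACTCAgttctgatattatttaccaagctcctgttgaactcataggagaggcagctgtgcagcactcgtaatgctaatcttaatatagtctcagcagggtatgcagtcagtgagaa
GADD45A run, chr1:68152426-68152550: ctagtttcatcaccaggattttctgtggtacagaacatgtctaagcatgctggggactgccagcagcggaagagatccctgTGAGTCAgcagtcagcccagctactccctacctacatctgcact
The second group shows that the highest peak of a run could also lack this core.
SOCS3 run, chr17:76338114-76338238: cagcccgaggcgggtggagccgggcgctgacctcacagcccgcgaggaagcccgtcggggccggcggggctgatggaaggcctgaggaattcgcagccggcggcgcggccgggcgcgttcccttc
FOSL1 run, chr11:65670750-65670874: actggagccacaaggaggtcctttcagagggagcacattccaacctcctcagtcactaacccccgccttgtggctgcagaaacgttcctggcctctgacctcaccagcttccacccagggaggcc
KLF6 run, chr10:3827513-3827637: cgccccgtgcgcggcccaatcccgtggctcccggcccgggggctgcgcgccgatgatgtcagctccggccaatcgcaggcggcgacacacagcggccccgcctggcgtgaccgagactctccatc
SMAD3 run, chr15:67341892-67342016: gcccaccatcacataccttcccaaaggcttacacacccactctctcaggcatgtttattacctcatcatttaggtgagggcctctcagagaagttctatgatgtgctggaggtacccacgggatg
The third group is from runs that also held peaks in ATF3-KO cells, and neither sequence held an AP-1 core.
OR4C46 run, chr11:51588884-51589008: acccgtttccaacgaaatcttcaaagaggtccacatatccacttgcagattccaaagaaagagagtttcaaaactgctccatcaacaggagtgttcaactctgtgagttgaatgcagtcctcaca
ZNF33B run, chr10:42529334-42529458: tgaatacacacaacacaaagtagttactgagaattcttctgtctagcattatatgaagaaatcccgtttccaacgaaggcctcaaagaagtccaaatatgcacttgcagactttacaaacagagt
Both sequences of the third group contain the 15-base stretch cccgtttccaacgaa, although they lie on different chromosomes. On either strand, this stretch was found in 26 of 153 peaks (17%) of the 22 runs that shared 2 or more peaks with ATF3-KO, and in 45 of all 70128 peaks (0.0642%). The stretch was picked from 2 peaks of these same runs, so the counts are a description. The KLF6 sequence lay 102 bp upstream of the transcription start site (TSS). The GADD45A sequence lay 1604 bp downstream of the TSS. The MYO18A sequence was intronic, whereas the HMGA1, ERRFI1, SOCS3, FOSL1 and SMAD3 sequences were intergenic.

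The libraries held 15457013 tags for ATF3-CPT, 12947516 for ATF3-Ctrl and 12820520 for ATF3-KO, and of these 12.76%, 5.6% and 0.56% lay in peaks. The p53 libraries were smaller, at 3169743 tags for p53-CPT and 1984941 for p53-KO. A peak needed at least 9 tags to be listed in the ATF3-CPT or the ATF3-Ctrl library, which corresponded to a normalized tag count (tags per 10000000 tags of the library) of 5.82 and 6.95. Some listed peaks lay below these values, with 5.2 at a peak in ATF3-CPT and 6.2 at a peak in ATF3-Ctrl. The values are therefore not a strict floor, but weaker binding could go unlisted. The larger share of tags in peaks and the larger number of peaks in ATF3-CPT went together with the treatment, and with 1 library per condition their part in the differences below was not tested.

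Most runs were just above the limit of the rule. There were 305 runs of 5 peaks, 103 of 6, 50 of 7, 24 of 8 and 7 of 9, and only 11 runs had 10 or more peaks. The longest series had 15 peaks. The median run length was 9608 bp (quartiles 7406 and 12396 bp), with a range from 1527 to 29735 bp, and 16 runs were 20 kb or longer. Adjacent centres were a median of 1780 bp apart over 2380 spacings, and 350 spacings were under 500 bp. All runs together spanned 5036734 bp, of which the peaks themselves covered 7.15%, so a run was mostly sequence between peaks. Just outside the rule, 888 series of 4 peaks had a median length of 6026 bp and a median summed normalized tag count of 66.3, compared with 8394 bp and 91.2 for the runs of 5. A limit of 4.9 kb gave 469 runs and one of 5.1 kb gave 524. By contrast, 35910 peaks (51.2%) had no neighbour within 5 kb. The header of the list gives a minimum distance of 248 bp between peaks, although the smallest spacing of listed centres in runs was 228 bp, and a required 4 times the tag density of the surrounding 10000 bp. The second criterion removed 6718 of 77434 putative peaks. Dense regions could therefore lose peaks, and the number of peaks per run is a lower count.

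The summed normalized tag count of a run had a median of 106.5 (quartiles 72.5 and 158), and the runs held 5.37% of the normalized tag count of all peaks. Within a run the peaks were unequal. The highest peak carried a median of 34% of the run's tag count, and the ratio of the highest to the lowest findPeaks score in a run, a number of tags with at most 1 counted per position, had a median of 3.5. Peaks in runs scored higher than the others in ATF3-CPT, with a median of 23 tags against 16.

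Length and tag count did not follow each other closely at the top of the range. The run with the largest tag count (2129.8, 95% Poisson interval 2057.6 to 2203.8) had only 7 peaks over 8268 bp, whereas the longest run, at STX10 and IER2, had 13 peaks over 29735 bp and a summed count of 329.3 (301.3 to 359.2). The highest peak of the first run had a normalized tag count of 581.6, at 0.647 per tag, but a score of only 185 tags. Many of its tags thus shared a position, and the Poisson interval, which counts them separately, is too narrow there.

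**Figure D1:**
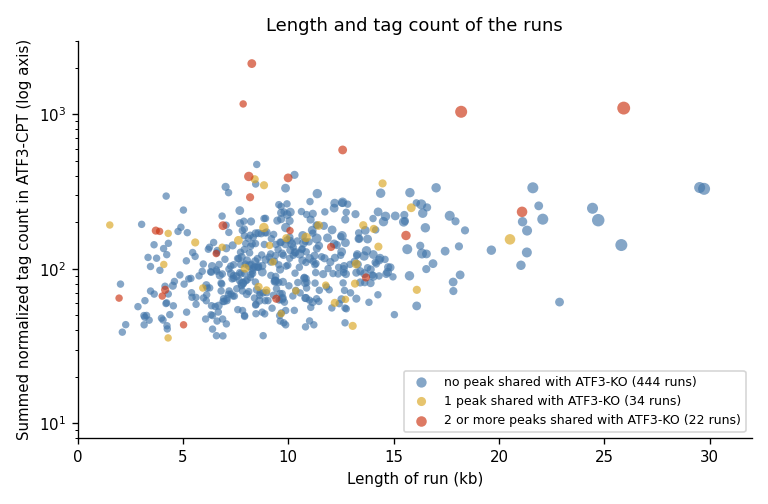
Length of each of the 500 runs in kb (x axis) against its summed normalized tag count in ATF3-CPT (y axis, log scale), with point area set by the number of peaks and colour by the number of peaks shared with ATF3-KO. The highest sums, up to 2129.8, belong to runs with 2 or more peaks shared with ATF3-KO (red), while the long runs at the right are mostly blue.

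Several of the runs with the most peaks lay at protein-coding genes. The run at PLAU, which encodes the secreted protease urokinase, spanned chr10:75639463-75668987 and had 11 peaks with a summed normalized tag count of 335.8 (307.5 to 365.9). From left to right the ATF3-CPT counts of these peaks were 51.8, 22, 14.9, 36.2, 26.5, 8.4, 38.8, 34.3, 7.8, 32.3 and 62.8. In ATF3-Ctrl 8 of the 11 had a peak, with 17.8 at the first, 9.3 at the fourth and the fifth, and 15.4, 13.1, 7.7, 15.4 and 17.8 at the shared peaks to their right. Every shared PLAU peak was thus higher in ATF3-CPT, the ninth only by a margin within 1 tag (7.8 against 7.7), and the ratio in sum was 2.75. The ends of the run were its highest peaks in both libraries.

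The run at SOCS3, a feedback inhibitor of cytokine receptor signalling, lay at chr17:76318708-76340314 and its nearest peak was 15906 bp downstream of the TSS. It also had 11 peaks, with a sum of 334.5 and counts from 9.1 to 68.6 in ATF3-CPT. Of these, 8 were shared with ATF3-Ctrl, where they ranged from 8.5 to 23.2, and the ratio over the shared peaks was 2.65. The 2 genes for HMGA proteins, small chromatin proteins that bind AT-rich DNA, each had a run of 11 peaks, but with different numbers of ATF3-Ctrl peaks. At HMGA1 (chr6:34191868-34216307) 5 peaks were shared with ATF3-Ctrl, with counts of 48.5, 26.5, 12.3, 49.2 and 31.1 in ATF3-CPT and 12.4, 9.3, 7.0, 16.2 and 13.9 in ATF3-Ctrl. In a run at HMGA2 (chr12:66330372-66352450) only 1 of 11 peaks had an overlapping ATF3-Ctrl peak, with 25.2 in ATF3-CPT against 8.5 in ATF3-Ctrl, and the other 10 ranged from 9.7 to 36.2 in ATF3-CPT. The highest HMGA2 peak was among those with no overlapping ATF3-Ctrl peak, but an ATF3-Ctrl peak of 9.3 lay within 500 bp of it.

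Long runs also lay within single gene bodies. All 14 peaks of the run at chr17:27460211-27484921 were in MYO18A, an unconventional myosin gene, and all 13 of the run at chr2:169035177-169060984 were in STK39, which encodes a kinase that regulates ion cotransport. The MYO18A run summed to 206.4, with a single peak of 43.3 at one end and the others between 6.5 and 23.3, and 4 peaks were shared with ATF3-Ctrl. In the STK39 run the counts ranged only from 6.5 to 22.6, and 5 of 13 peaks were shared. Over all runs, 194 had every peak inside 1 protein-coding gene body, 166 had none in a gene body and 140 crossed a gene border.

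**Figure D2:**
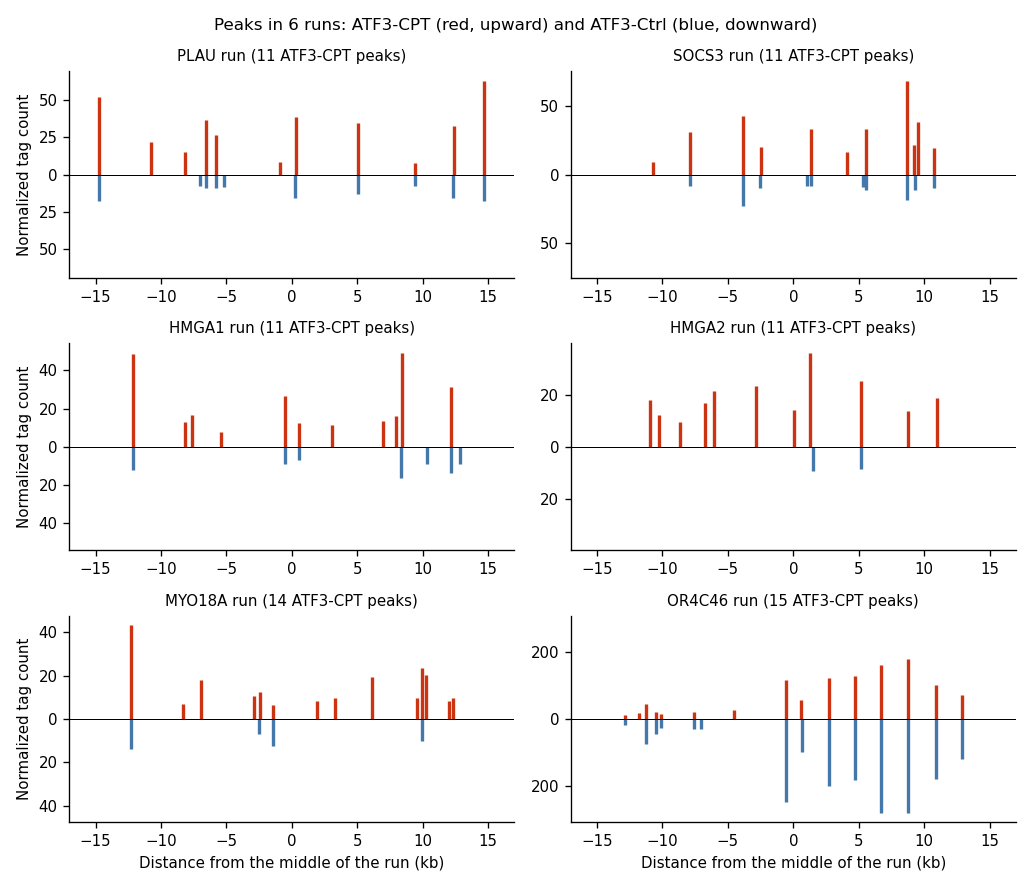
Peaks of 6 runs by distance from the middle of the run in kb (x axis) and normalized tag count (y axis, separate scale per panel), with ATF3-CPT upward in red and ATF3-Ctrl downward in blue, including ATF3-Ctrl peaks that lie near but do not overlap an ATF3-CPT peak. PLAU and SOCS3 have a blue line below most red lines, HMGA2 below few, and in the OR4C46 panel every blue line below a red one is the longer of the pair.

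Nearly every run held a peak that was also listed in ATF3-Ctrl. Of the 500 runs, 480 (96%) held at least 1 peak that shared 1 base or more with an ATF3-Ctrl peak. Since 38.3% of all ATF3-CPT peaks were shared and each run held at least 5 peaks, this high number follows in part from run size. In 252 runs at least as many peaks were shared as not. The median was 3 shared peaks per run. No peak was shared in 20 runs, 1 in 79, 2 in 124, 3 in 124 and 4 in 94, and every peak was shared in 15 runs. Among runs of exactly 5 peaks, these numbers were 17 with none, 61 with 1, 83 with 2, 86 with 3, 45 with 4 and 13 with all 5.

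Counted by peak, 1418 of 2880 run peaks (49.2%, 95% Wilson interval 47.4 to 51.1) had an ATF3-Ctrl peak, compared with 38.3% of all ATF3-CPT peaks and 37.8% (37.4 to 38.2) of those outside runs. The score of the peak went with most of this difference. At scores of 9 to 12, 12.2% (9.34 to 15.7) of run peaks and 11.0% (10.6 to 11.4) of other peaks were shared. At 13 to 19 the shares were 26.4% (23.4 to 29.6) and 23% (22.3 to 23.6), at 20 to 39 they were 52.6% (49.5 to 55.7) and 53.9% (53.1 to 54.6), and at 40 or more they were 91.0% (88.6 to 92.9) and 92.9% (92.4 to 93.4). The intervals overlapped in all 4 bands, and run peaks were below the others in the upper bands. Low scores of 9 to 12 made up 14% of run peaks and 33.5% of other peaks. Neighbouring peaks are not independent, so these intervals are too narrow as a measure of how runs differ. Without the runs that held any ATF3-KO peak, 46.9% of run peaks were shared, and the shares in the 4 bands were 10.6%, 23.2%, 50.7% and 91.1%.

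**Figure D3:**
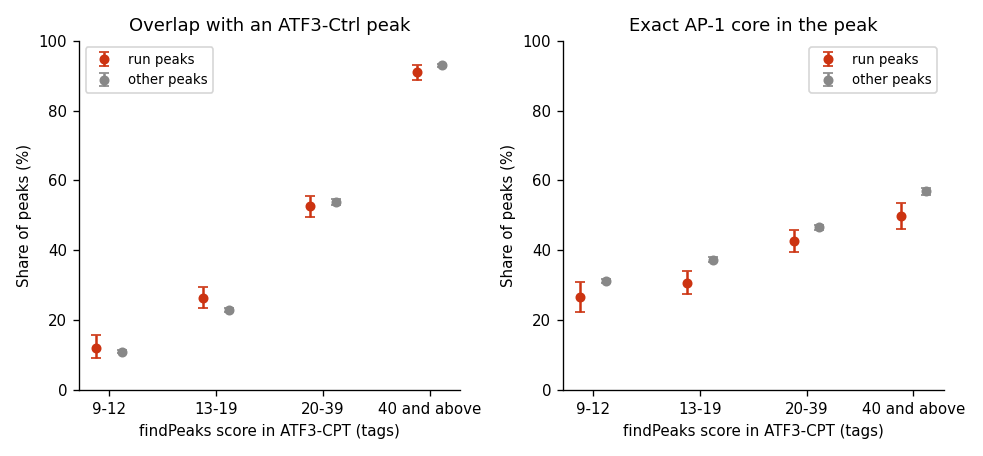
Share of peaks (y axis, %) that overlapped an ATF3-Ctrl peak (left) or held an exact AP-1 core (right) by findPeaks score band (x axis, tags), for run peaks in red and other peaks in grey, with 95% Wilson intervals as bars. On the left the pairs of points nearly coincide, from 12.2% and 11.0% in the lowest band to 91.0% and 92.9% in the highest, and on the right the red points are lower in every band.

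Inside the runs the share also went with score. The highest peak of a run was shared with ATF3-Ctrl in 419 of 500 runs (83.8%), and the share was 65.8% for the second peak by score, 49% for the third, 38.2% for the fourth and 25.6% for the fifth. Median scores over these ranks were 50.5, 33.5, 25, 18.5 and 15. The peaks at the ends of runs were shared in 47.6% and those inside in 50.1%, so position within the run made little difference. The shared peaks carried 71.4% of the tag count of the runs, against 64.7% for peaks outside them. In runs without ATF3-KO peaks, 424 of 444 (95.5%) had a shared peak, shared peaks carried 68.2% of the tag count, and the shares by rank went from 82.7% to 22.3%. Run peaks shared with ATF3-Ctrl had a median normalized tag count of 25.9 and the unshared ones 11.

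**Figure D4:**
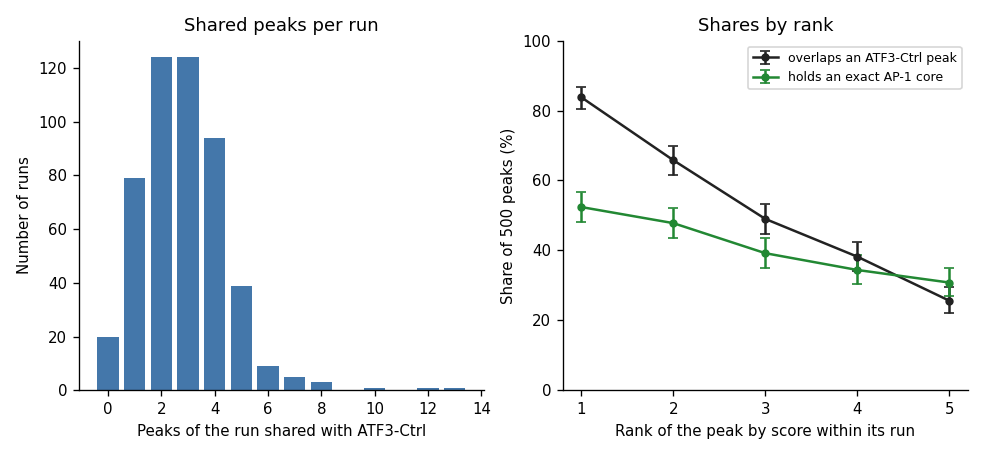
Left, number of runs (y axis) by how many of their peaks were shared with ATF3-Ctrl (x axis). Right, share of the 500 peaks of each rank (y axis, %) that overlapped an ATF3-Ctrl peak (black) or held an exact AP-1 core (green), by rank of score within the run (x axis, 1 is highest), with 95% Wilson intervals. The black points go from 83.8% to 25.6% and the green points from 52.4% to 30.8%.

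The run peaks without an ATF3-Ctrl peak lay close to one. Their median distance to the nearest ATF3-Ctrl peak was 2316 bp, and 79.3% lay within 5 kb, whereas the corresponding ATF3-CPT peaks outside runs had a median of 16128 bp and 25.8%. This closeness follows in part from the rule, since a run that holds any shared peak places its other peaks within a few kb of it. Of the unshared run peaks, 228 (15.6%) had an ATF3-Ctrl peak within 500 bp, compared with 6.72% of the unshared peaks outside runs. A peak counted as unshared was thus not always far from an ATF3-Ctrl peak. A few ATF3-Ctrl peaks inside the spans of the runs were absent from the ATF3-CPT list. They numbered 128 of 1536 (8.33%), in 115 runs, compared with 20% of ATF3-Ctrl peaks over all these chromosomes. The lower share also follows in part from the rule, since the spans were chosen as stretches dense in ATF3-CPT peaks.

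The rule gave 107 runs when applied to ATF3-Ctrl. Of these, 73 (68.2%) overlapped an ATF3-CPT run, and 72 of the 500 ATF3-CPT runs (14.4%) overlapped one of ATF3-Ctrl. It gave 3 runs in ATF3-KO, all 3 overlapping an ATF3-CPT run, 5 in p53-CPT and 4 in p53-KO. The libraries differ in depth and in number of peaks, which sets how many runs the rule can find.

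At the 1418 shared run peaks the normalized tag count was a median of 1.76 times higher in ATF3-CPT (log2 difference 0.81, quartiles 0.14 and 1.33). It was at least 2 times higher at 588 peaks (41.5%), compared with 44.0% of all shared ATF3 peaks, so the runs were near the background. In the other direction 70 run peaks (4.94%) were at least 2 times lower, compared with 2.04% of all shared peaks. Of these 70, 64 were in runs that held a peak in ATF3-KO cells. In the 444 runs with no such peak, the median log2 difference was 0.93, 46.4% of 1182 shared peaks were at least 2 times higher, and 6 (0.508%) were at least 2 times lower. Summed over the shared peaks of a run, the count was at least 2 times higher in ATF3-CPT in 206 of 480 runs and lower than in ATF3-Ctrl in 54, of which 28 were among the 444 runs without ATF3-KO peaks.

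Runs with 2 or more peaks in ATF3-KO cells stood apart. ATF3-KO peaks overlapped 109 run peaks (3.78%), compared with 2.48% of all ATF3-CPT peaks, and these lay in 56 runs, of which 34 had 1 and 22 had 2 or more. The 22 runs with 2 or more were far from genes, a median of 551245 bp from the nearest TSS, and 16 of them lay within 1 Mb of an assembly gap of at least 1 Mb, a class that includes the centromeres in GRCh37. Only 3 of the 444 runs without ATF3-KO peaks did. The 22 runs also held p53-KO peaks in 19 cases, an AP-1 core in 1.96% of their 153 peaks against 41.7% in the runs without ATF3-KO peaks, and sequence of low complexity in 30.7% of peaks against 0.674%. ATF3-Ctrl peaks were present at 82.4% of their peaks. The 34 runs with 1 ATF3-KO peak were closer to the runs without any. Their median distance to the nearest TSS was 4177 bp, and 2 lay within 1 Mb of such a gap. An AP-1 core was in 33.2% of their peaks, low complexity in 10.7%, and their median ratio of ATF3-CPT to ATF3-Ctrl was 1.57. The class was mixed. The runs nearest to CWH43 at chr4:49135373-49146812 and chr4:49633608-49641239 had low complexity in 7 of 7 and 6 of 7 peaks. Neither held an AP-1 core, and their ratios were 0.466 and 0.528. Because ATF3-KO cells lack the target of the antibody, the main shares and ratios are also given without the runs that held any ATF3-KO peak.

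These 22 runs included the largest sums. The run of 7 peaks at chr19:27732013-27740280, for which the nearest protein-coding TSS (UQCRFS1) was 1963840 bp away, had counts of 581.6, 274.3, 269.1, 220.6, 462.6, 135.9 and 185.7 in ATF3-CPT. The same 7 peaks had 1140.0, 492.8, 400.1, 403.9, 773.1, 236.3 and 314.3 in ATF3-Ctrl, so every one was lower in ATF3-CPT, and 5 of them overlapped an ATF3-KO peak. The run with the most peaks of all, 15 at chr11:51567249-51593168 (nearest TSS OR4C46), summed to 1097.2, shared 13 peaks with ATF3-Ctrl and 8 with ATF3-KO, and had a ratio of 0.587. The 13-peak run at chr10:42527969-42546173 (nearest TSS ZNF33B) summed to 1038.4 with a ratio of 0.5. Over the 22 runs the ratio of ATF3-CPT to ATF3-Ctrl at shared peaks had a median of 0.542 and was under 1 in 19, compared with a median of 1.95 in the runs without ATF3-KO peaks. When these 22 runs are left out, the largest sum of a run was 473.6 and the median 105.1.

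**Figure D5:**
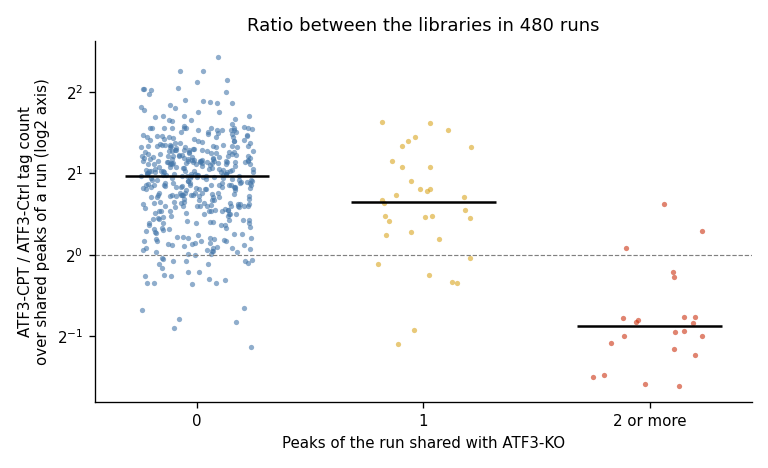
Ratio of normalized tag counts, ATF3-CPT over ATF3-Ctrl, summed over the shared peaks of a run (y axis, log2 scale), for the 480 runs with a shared peak, by the number of peaks shared with ATF3-KO (x axis). Each point is 1 run, horizontal bars are medians (1.95, 1.57 and 0.542) and the dashed line marks a ratio of 1. Most runs in the right column lie below the dashed line and most in the left column above it.

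The 500 runs were nearest to 457 protein-coding genes, or 2.27% of 20090. Of 171 genes in lists of pathways active in colon epithelium or induced by damage, 26 (15.2%) were the nearest gene of a run. With the gene body and 20 kb upstream in place of the nearest TSS, 24 (14%) of the listed genes and 2.62% of all had a run. At least 1 ATF3-CPT peak was nearest to 166 of the 171 and to 15721 of the 20090, and the lists were drawn up with earlier results on these libraries known, so this share is a description.

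In what follows a listed gene has a run where it is the nearest gene. Transcription factors of the AP-1 family had runs at 2 of 14 genes, FOSL1, which encodes FRA-1, and JUNB. The FOSL1 run (chr11:65666814-65683401) had 6 peaks with counts of 36.2, 34.3, 86.7, 11.6, 11.6 and 69.2 in ATF3-CPT. In ATF3-Ctrl the second, the third and the sixth had counts of 9.3, 17 and 20.1, and the ratio over these was 4.1. The JUNB run (chr19:12884606-12893995) had 7 low peaks of 9.1 to 20.7, all within the neighbouring gene HOOK2, and only the highest was shared, at 20.7 in ATF3-CPT against 11.6 in ATF3-Ctrl. None of the 19 ATF/CREB and C/EBP genes had a run. With so few genes, this is near the 2.27% of all protein-coding genes that were nearest to a run. Of the 19, 17 were the nearest gene of at least 1 ATF3-CPT peak.

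In the list of KLF and immediate early genes, 4 of 18 were nearest to a run: KLF6 and KLF9, zinc finger transcription factors, and IER5 and IER5L. The long run at STX10 also covered IER2, an immediate early gene of this list whose TSS lay inside it. The KLF6 run at chr10:3817575-3827637 had 6 peaks, the highest of which stood 102 bp from the TSS with 95.7 in ATF3-CPT against 55.6 in ATF3-Ctrl. A further 2 runs had KLF6 as nearest gene, for 16 peaks in all, 8 of them shared.

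Regulators of the EGFR and MAPK pathway with runs were 3 of 23. ERRFI1, an inhibitor of EGFR family receptors, was nearest to 4 runs with 24 peaks, 13 of which were shared, within chr1:8075096-8235162. The run of 7 peaks at chr1:8144100-8157754, 57793 bp upstream of the gene, had 25.9, 11.6, 17.5, 22.6, 28.5, 23.3 and 47.9 in ATF3-CPT. There the ATF3-Ctrl counts were 10.8 at the first peak and 8.5, 17, 15.4 and 18.5 at the last 4, all lower than in ATF3-CPT. In the other runs nearest to ERRFI1 the ratios over shared peaks were 2.75, 2.24 and 0.866, the last being lower in ATF3-CPT. DUSP5, an ERK phosphatase, had a run of 6 peaks over its promoter with a highest count of 65.3, against 27.8 in ATF3-Ctrl. AREG, a ligand of EGFR, had 5 peaks of 10.4 to 23.9. GRCh37 holds a near-identical copy of this gene (AREGB), which also had runs, and reads could be divided between the copies, so both are uncertain.

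Adhesion genes of epithelia had runs at 5 of 22. Among them were LAMB3, which encodes a chain of a basement membrane laminin, ITGA2, a collagen-binding integrin subunit, CD44, a hyaluronan receptor, and DST, which links filaments to hemidesmosomes. At ITGA2 (6 peaks, chr5:52315244-52333630) the highest peak had 60.2 in ATF3-CPT against 40.9 in ATF3-Ctrl. At CD44 only 2 of 6 peaks were shared, with 42.1 and 14.9 in ATF3-CPT and 10.8 and 11.6 in ATF3-Ctrl. The 2 DST runs had 1 shared peak each, with ratios of 4.36 and 3.95.

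TGF-beta genes had runs at 5 of 20. The SMAD3 run (chr15:67332148-67342016), 14147 bp upstream of this signal transducer, had 7 peaks of 36.2, 57.6, 38.2, 31.7, 31.7, 33.0 and 104.2 in ATF3-CPT. All but the fourth were shared, with 20.9, 15.4, 18.5, 43.3, 11.6 and 61.0 in ATF3-Ctrl, and the fifth peak was the one that was lower in ATF3-CPT. A second run of 5 peaks was inside SMAD3. All 5 peaks in TGFBR2, the type II receptor, were shared, with ATF3-CPT counts from 23.9 to 46.6 and ATF3-Ctrl counts from 7.7 to 28.6. SMAD6, an inhibitory SMAD, had 5 peaks in its body, 2 of them shared. The runs nearest to TGFB2 (a ligand) and TGIF1 (a corepressor) were 311481 bp and 199356 bp from the TSS, and the latter lay within DLGAP1, so the nearest gene is only a label of position.

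In the YAP and TEAD list 2 of 14 genes were nearest to a run. A run of 7 peaks (sum 233.6, 4 shared) also lay within WWTR1, which encodes the coactivator TAZ, but the TSS of TM4SF4 was nearer to it. TEAD1 had 2 runs of 5 peaks in its body with sums of 76.3 and 49.8. AXL, a receptor tyrosine kinase, had 7 peaks over its promoter and body, including 113.2 and 59.5 in ATF3-CPT against 50.2 and 15.4 in ATF3-Ctrl, and the first of these 2 also overlapped an ATF3-KO peak. Of 19 WNT and colon stem cell genes 3 had runs. At SOX9, a transcription factor of intestinal crypts, 8 peaks lay 261233 bp beyond the TSS at chr17:70378332-70394104, 7 of them with an AP-1 core. The highest was nearly as high in the DMSO library, with 104.8 in ATF3-CPT against 97.3 in ATF3-Ctrl. TCF7L2 had 5 peaks in its body with a sum of 94.5, and the BMP4 run, 103022 bp from its TSS, was weak, with a sum of 43.4.

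Among 23 p53 target genes, GADD45A and DDB2 had runs, the first a growth arrest gene and the second a gene of nucleotide excision repair. The GADD45A run (chr1:68148361-68153566) was short, with 5 peaks in 5206 bp at counts of 34.9, 27.2, 24.6, 63.4 and 21.3 in ATF3-CPT. ATF3-Ctrl had 13.9 at the first peak and 85.0 at the fourth. The fourth was thus the highest peak of the run in both libraries and was lower in ATF3-CPT, whereas the first was higher. The DDB2 run had 5 peaks of 12.3 to 25.2, and the 2 shared ones had 18.1 and 12.3 in ATF3-CPT and 15.4 and 11.6 in ATF3-Ctrl.

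The fourth GADD45A peak also overlapped a p53-CPT peak with a normalized tag count of 466.9. Its sequence, printed above, contains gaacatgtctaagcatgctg, which matches the 20-base consensus of the p53 response element, without a spacer, at all but 1 position. An exact AP-1 core lies in the same 125 bases. A match with at most 1 mismatch on either strand was present in 3 run peaks (0.104%) and in 47 of all 70128 peaks (0.067%). The other one at a p53-CPT peak of these runs was in an intron of TMOD3, where aggcaagtttgaacaagttt had no mismatch, the ATF3-CPT count was 31.1 with no overlapping ATF3-Ctrl peak, and the p53-CPT count was 189.3.

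Across the runs, p53-CPT peaks overlapped 71 run peaks (2.47%), compared with 1.3% of all ATF3-CPT peaks, and p53-KO peaks overlapped 41 (1.42%), compared with 0.429%. In the 444 runs without ATF3-KO peaks the shares were 1.03% (0.705 to 1.51) and 0.159% (0.0617 to 0.407). The first interval includes the 1.3% of all peaks, and the second lies below the 0.429%. The shares of all peaks include peaks that overlap ATF3-KO peaks. Of the 48 runs with a p53-CPT peak, 23 also had a p53-KO peak. Only 20 had neither a p53-KO nor an ATF3-KO peak, among them the runs at GADD45A, PLAU, FOSL1, ITGA2, IER5, SARS1, ADORA2B and B4GALT5. At the PLAU peak of 36.2 in ATF3-CPT the p53-CPT count was 63.1, and at the FOSL1 promoter peak of 36.2 it was 41.0. The p53-CPT threshold corresponded to a normalized tag count of 22.08, which limits how many weak sites could be seen.

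Several genes had more than 1 run. A total of 33 genes were nearest to 2 or more runs, and 32 pairs of neighbouring runs lay within 50 kb of each other. The largest group was around TRIB1, which encodes a pseudokinase that directs C/EBP-alpha to degradation, with 6 runs and 33 peaks, 18 of them shared, and a summed normalized tag count of 1278.9. Of these runs, 1 lay at the TRIB1 promoter and 3 within the upstream gene NSMCE2. The strongest run without any ATF3-KO peak belonged to this group, with counts of 157.2, 224.5, 27.2, 19.4 and 45.3 in ATF3-CPT. There the ATF3-Ctrl counts were 62.6, 107.4 and 12.4 at the first 3 peaks and 12.4 at the last. The ratios of the 6 runs lay between 2.03 and 2.6. The 4 runs nearest to CWH43 and the 3 nearest to ZNF33B each held ATF3-KO peaks and had ratios from 0.449 to 0.571, below those of every TRIB1 run.

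At the ends of the distribution, the 15 runs with every peak shared included S100A2, a calcium-binding protein gene, and DHRS12. The S100A2 run had 30.4, 111.9, 114.5, 38.8 and 15.5 in ATF3-CPT and 13.9, 42.5, 36.3, 24.7 and 12.4 in ATF3-Ctrl, so its order of peaks was nearly kept. The DHRS12 run had 42.7, 92.5, 25.9, 26.5 and 47.2 against 10.0, 27.0, 13.9, 16.2 and 27.0. The 20 runs with no shared peak had summed counts from 36.9 to 82.3, with a median of 53.1 against 106.5 over all runs. The most peaks among them were 6, in CRYBG2 (7.8 to 23.9), 376782 bp from ACTL7B (5.2 to 16.8) and at the uncertain copy AREGB (6.5 to 16.8). Another was in TMEM45B, with 5 peaks of 7.8 to 18.8, although an ATF3-Ctrl peak of 6.2 lay within 500 bp of the highest. The lowest ATF3-CPT count in these runs, 5.2, is under the ATF3-Ctrl threshold of 6.95, so a site of that size could go unlisted in ATF3-Ctrl.

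Promoters, taken as 2 kb on either side of a TSS, held 13.3% (12.1 to 14.6) of run peaks, compared with 16.8% of all ATF3-CPT peaks and 17% (16.7 to 17.3) outside runs. Introns held 44.0% (42.2 to 45.8) of run peaks and 39.7% (39.3 to 40) of the others, whereas intergenic shares were 39.7% and 38.7%. Among the other peaks, promoters held 22.3% of those shared with ATF3-Ctrl and 13.7% of those that were not, but in runs the corresponding shares were 13.8% (12.1 to 15.6) and 12.9% (11.3 to 14.7). In runs without ATF3-KO peaks they were 14.6% (12.7 to 16.7) and 11.9% (10.2 to 13.7), and 13.1% for all their peaks. By run, 163 (32.6%) had a peak within 2 kb of a TSS, 144 had a TSS inside, 337 had no promoter peak and 104 were more than 100 kb from any TSS. Runs were most frequent per length on chromosomes 19 (33 runs, 5.58 per 10 Mb) and 17 (36 runs, 4.43 per 10 Mb), which also had the most ATF3-CPT peaks per Mb (45.3 and 48.4), and least frequent on X (3 runs, 0.193 per 10 Mb, with 7.96 peaks per Mb).

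The AP-1 core was present in 1122 run peaks (39%, 37.2 to 40.8), compared with 40.6% of all ATF3-CPT peaks and 40.7% (40.3 to 41.1) outside runs, and in 1.36% of windows of the same length 1000 bp to the side of run peaks. When runs with any ATF3-KO peak were left out, the share in runs was 41.7%, but the other peaks kept their ATF3-KO overlaps. With ATF3-KO-overlapping peaks removed on both sides and runs called again, the share was 41.1% in runs and 41.5% outside. Over all 500 runs the share was lower than outside in each score band. It was 26.6% in runs and 31.2% outside for scores of 9 to 12, and 30.8% and 37.3% for 13 to 19. For 20 to 39 it was 42.6% and 46.6%, and for 40 or more 49.9% and 56.9%. In the runs without ATF3-KO peaks these shares were 27.7% (23.3 to 32.6), 32.4% (29 to 36), 45.6% (42.4 to 48.9) and 55.1% (51.1 to 59.1), and only the second of these intervals lay wholly below that of the other peaks (36.6 to 38). Within a run the share went from 52.4% (48.0 to 56.7) at the highest peak to 30.8% (26.9 to 35.0) at the fifth, and from 55.4% to 32.9% in runs without ATF3-KO peaks. At least 2 peaks held the core in 351 runs (70.2%), all peaks in 12, and none in 64. Run peaks shared with ATF3-Ctrl held it in 37.7% (35.2 to 40.3) and unshared ones in 40.2% (37.7 to 42.7), but in runs without ATF3-KO peaks the order turned, with 42.6% (39.8 to 45.4) and 40.9% (38.3 to 43.6).

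The ATF/CRE core TGACGTCA was rare, in 37 run peaks (1.28%) and 35 runs, compared with 1.41% of all peaks. The 5295 side windows held 0, and a limit of 3 counts of that total allows a share of up to 0.0567%. In runs without ATF3-KO peaks the share was 1.31%. The core was present in 1.76% (1.2 to 2.59) of run peaks shared with ATF3-Ctrl and in 0.821% (0.47 to 1.43) of the unshared, and these intervals overlapped. Outside runs the corresponding shares were 2.47% (2.29 to 2.67) and 0.775% (0.695 to 0.863), so the difference was not particular to runs. The TEAD core, searched as GGAATG on both strands, was in 14.2% (13 to 15.5) of run peaks, compared with 12.9% of all peaks and 7.99% of side windows. The runs with 2 or more ATF3-KO peaks held it in 34% (27 to 41.8) of peaks. In some of these runs the 6 bases were repeated many times within a peak. In the run nearest to RP11-685N3.1, each of the 7 peaks held 10 to 17 matches, and all 7 were of low complexity. The 34% is therefore a share of sequence matches and not a measure of TEAD sites. In runs without ATF3-KO peaks the share was 12.7% (11.5 to 14.1), near that of all peaks. Shared run peaks held it in 16.7% (14.9 to 18.7) and unshared ones in 11.8% (10.2 to 13.5), and in runs without ATF3-KO peaks these shares were 14.5% (12.6 to 16.6) and 11.2% (9.62 to 13). Outside runs they were 13.5% (13.1 to 14) and 12.5% (12.1 to 12.8). Neither an exact AP-1 core nor an ATF/CRE core was found in 59.8% of run peaks and in 58.1% of all peaks.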

How the data were processed

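ATF3 and p53 binding was measured by ChIP-seq in 5 libraries of HCT116 cells, 1 per condition. Before sonication, cells were fixed in DSG (1 mM, 45 min) and formaldehyde (1%, 10 min). Per the submitters' processing notes, the authors used BWA 0.6.1 and HOMER 4.1 with hg19 (GRCh37). The deposited peak lists, 1 per library, hold a normalized tag count, a signal scaled to 10000000 tags per library, and a findPeaks score of tags with at most 1 per position, which the authors did not scale by depth. No input control is named in the file headers. The headers state a false discovery rate of 0.001. Fold and p-value columns of the deposited lists were not used, and no comparison of the authors was used.

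Runs, overlaps of at least 1 base, distances and tag sums were computed in Python 3.11.15 with pandas 2.3.3, numpy 2.4.6 and pysam 0.24.0. A sum over shared peaks used the overlapping ATF3-Ctrl peaks. Intervals are 95% Wilson intervals for shares (statsmodels 0.14.6) and exact Poisson intervals for tags (scipy 1.17.1), and cover counting error only. The Poisson intervals count tags at the same position separately, so they are too narrow where many tags share a position. Genes were protein-coding genes of GENCODE release 44 mapped to GRCh37, and the nearest gene was that with the TSS closest to any peak centre of the run. Low complexity meant that distinct 6-base words were under 0.5 of all words in a peak. Peak starts were read as 1-based. Sequences overlapping annotated UTRs were not shown. Run calling, overlap and core counting were tested on simulated peaks. With 1 library per condition, no test was made.

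The members, gene lists and named genes were chosen with earlier results of these data known. Runs were named by the most peaks, the largest sum, none or all peaks shared, ATF3-KO or p53-CPT overlap, and the gene lists, and not every run that met this rule is described. TMOD3 and other runs of the p53 paragraphs, runs at the additional list genes, and the GADD45A element were chosen after their values were seen. A gene of the adhesion list is not reported here.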

Additional observations from a re-analysis of the deposited data

How the results depend on the processing

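Of 26 alternatives, 5 left the number of runs within 1.5 times, or a share within its 95% interval, and 21 moved the value further. The number of runs, 500, was 133 with centres at most 3 kb apart, 1856 at 10 kb, 92 with at least 7 peaks and 138 with scores of at least 20. The share of run peaks with an ATF3-Ctrl peak, 49.2%, was 46.6% when 0.5 of the peak had to overlap, 57.2% for centres within 500 bp, 51.4% at 3 kb, 46.2% at 10 kb, 53.2% with at least 7 peaks, 47.1% with ATF3-KO-overlapping peaks removed, and 68.4% with scores of at least 20, where other peaks had 69.2%. The AP-1 share, 39%, was 35.6% at 3 kb. It was 41.1% without ATF3-KO-overlapping peaks, against 41.5% of other peaks. With scores of at least 20 it was 40.1% against 50.6% of other peaks. The promoter share, 13.3%, was 8.85% for 1 kb and 21.7% with genes of every type. In alternatives chosen after seeing the data, the runs with any ATF3-KO peak, or with 2 or more, were left out. This gave 46.9% and 47.4% for the ATF3-Ctrl share and 41.7% and 41.0% for the AP-1 share. The AP-1 share of other peaks, with ATF3-KO-overlapping peaks kept, was 40.7%. Leaving out the runs with any ATF3-KO peak also took the TEAD share from 14.2% to 12.7% (other peaks 12.9%) and the p53-CPT share from 2.47% to 1.03% (other peaks 1.26%).

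No paired analysis was possible because each condition has 1 library. No replicate exists to leave out. Treatment, library depth and enrichment cannot be told apart.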
